A study of Homo sapiens with 48 samples.

Results

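The TSC22 domain family has 4 members in the human genome, TSC22D1, TSC22D2, TSC22D3 and TSC22D4, and the 4 were taken by gene symbol from a table of 58870 genes measured in 48 RNA-sequencing libraries. All 4 passed the filter on low counts, as members of 16697 genes tested. The members were chosen by family name after TSC22D3 had been seen to be 7.16-fold higher in one measured contrast, siUPF1 against siNT in the CLIP line. Every value of a member in that contrast, and in any line against CLIP, is therefore given as a description without a test. Other genes were tested in that contrast, and counts of called genes in CLIP come from that test.

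The cells were Flp-In 293 T-REx, a human embryonic kidney line with a genomic site for inserting a transgene and a tetracycline repressor. Of 8 stable lines, 6 expressed a mutant of UPF1 with a CLIP tag (E797R, F192E, FE-ER, I757R, IR-ER or LECY), 1 carried CLIP-tagged wild-type UPF1 (WT), and 1 carried the CLIP tag alone (CLIP). FE-ER, IR-ER and LECY are used as labels only, since the labels do not spell them out. Each line received 40 nM of an siRNA against UPF1 (siUPF1) or of a non-targeting siRNA (siNT) by reverse transfection and was harvested at 72 h, with 3 biological replicates per line and siRNA. Endogenous UPF1 was present in every line before the siRNA. Whether a line was 1 clone or a pool was not given in the sources used here.

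UPF1, an RNA helicase, drives nonsense-mediated mRNA decay (NMD), a pathway that degrades transcripts that terminate translation too early or in an unusual context. TSC22 domain proteins share a conserved TSC box followed by a leucine zipper, through which they form homodimers and heterodimers. TSC22D1 was named as a transcript stimulated by TGF-beta. TSC22D3, also called GILZ, is induced by glucocorticoids and by FOXO transcription factors and is known mainly for restraining inflammatory transcription in immune cells. TSC22D2 and TSC22D4 bind the pseudokinase NRBP1, and the family has been linked through it to the WNK kinases, which control chloride cotransport and cell volume.

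The members lie apart in the genome (GENCODE 29, hg38): TSC22D1 at chr13:44432143-44577147 on the minus strand, TSC22D2 at chr3:150408335-150466431 on the plus strand, TSC22D3 at chrX:107713221-107777342 on the minus strand and TSC22D4 at chr7:100463359-100479279 on the minus strand. All 4 are protein-coding. TSC22D3 has 17 annotated transcripts with 17 different starts, and the deposited table sums their reads in 1 row, so the values below do not say which start was used. RefSeq (GRCh38.p14) lists 4 promoters for TSC22D3, 5 for TSC22D1 and 1 for TSC22D4, each from 250 bases before to 50 bases after a start. The results turn on TSC22D3, so a promoter from each end of the gene is shown, both on the minus strand and read 5′ to 3′. The internal promoter, chrX:107717013-107717312, comes first and the upstream promoter, chrX:107775738-107776037, second. Capitals mark the FOXO core TGTTTAC.
TSC22D3 internal promoter: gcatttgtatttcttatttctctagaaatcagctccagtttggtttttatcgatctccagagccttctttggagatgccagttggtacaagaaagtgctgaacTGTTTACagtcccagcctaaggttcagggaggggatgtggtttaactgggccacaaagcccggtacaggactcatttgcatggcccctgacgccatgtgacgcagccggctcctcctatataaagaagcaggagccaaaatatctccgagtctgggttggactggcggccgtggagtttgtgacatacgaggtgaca
TSC22D3 upstream promoter: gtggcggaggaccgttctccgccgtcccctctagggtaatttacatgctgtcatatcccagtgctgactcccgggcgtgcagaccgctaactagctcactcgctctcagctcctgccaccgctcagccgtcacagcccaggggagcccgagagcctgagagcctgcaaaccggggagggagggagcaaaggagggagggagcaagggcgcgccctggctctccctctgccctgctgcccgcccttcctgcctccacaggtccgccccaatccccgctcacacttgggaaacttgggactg

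Each motif was searched on both strands of the 10 promoters of TSC22D1, TSC22D3 and TSC22D4 without mismatches. The promoter of TSC22D2 was not analysed here. The FOXO core begins at -147 in the internal TSC22D3 promoter, counting the start as 0, and was in 1 of the 10 promoters and in 3.42% of all 35116 RefSeq promoters of the same length. The E-box CACGTG was in 1 TSC22D1 promoter and in 7.26% of all promoters. The glucocorticoid response element (GNACA and TGTNC with 3 bases of any kind between them), the cAMP response element TGACGTCA and the Smad box GTCTAGAC were not found in these windows, and 0.390%, 1.85% and 0.202% of all promoters held them.

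Library totals ranged between 6016999 and 14551820 expected counts, and normalisation factors between 0.951 and 1.03. UPF1, the targeted gene, averaged 20.4 ± 0.916 CPM (counts per 1000000) with siUPF1 and 106 ± 7.45 CPM with siNT in the CLIP line (SD, n = 3 each), a log2 difference of -2.37 (SE 0.13). In the 7 lines with a UPF1 transgene, whose reads are summed with those of endogenous UPF1, group means lay between 3259.5 and 4819 CPM with siUPF1 and between 3613 and 4405 CPM with siNT, and UPF1 passed the test in none of them (adjusted p of 0.342 to 0.961). The check of the siRNA is therefore available in CLIP alone. Markers of 293 cells summed to between 1035 and 1474 CPM per library. Fibroblast markers summed to between 4.13 and 13.2 CPM, with DCN at 0.145 CPM or less. COL3A1, PDGFRA and COL1A1 of that list reached 7.12, 5.03 and 3.81 CPM. Leukocyte markers summed to between 4.26 and 12.1 CPM, with CD3E at 0 in all libraries and PTPRC at 0.241 CPM or less. Most of that sum was CD68, at 4.15 to 11.7 CPM. In such bulk samples, fewer cells of a type and less RNA per cell cannot be told apart.

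TSC22D3 was the most variable member and, per length of its exons, the most abundant. Its group means ran between 21.2 and 155 CPM per kilobase of merged exons. The same measure was between 9.20 and 11.2 for TSC22D1, between 6.45 and 8.12 for TSC22D4 and between 4.78 and 5.77 for TSC22D2. Across single libraries TSC22D3 spanned 60.3 to 996 CPM, a 16.5-fold range. The other members spanned 1.34-fold (TSC22D1), 1.72-fold (TSC22D2) and 1.54-fold (TSC22D4) between their lowest and highest libraries.

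In CLIP cells TSC22D3 had 694, 667 and 814 CPM in the siUPF1 libraries of replicates 1, 2 and 3, against 95.4, 77.0 and 131 CPM in the siNT libraries. The lowest siUPF1 library was above the highest siNT library, and the fitted log2 difference was 2.84 (SE 0.56), or 7.16-fold. The other members in the same libraries had log2 differences of 0.02 (TSC22D1, SE 0.08), 0.06 (TSC22D2, SE 0.12) and 0.17 (TSC22D4, SE 0.11). Among all genes, 33.7% passed the test in this contrast, in either direction.

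How the family responded where a UPF1 transgene was present was asked in the other 7 lines, in libraries that the choice of members did not use. TSC22D3 rose in LECY and F192E cells, and its values in the other lines were smaller. In LECY cells it had 642, 584 and 996 CPM with siUPF1, against 106, 64.4 and 201 CPM with siNT, and the groups did not overlap. The log2 difference was 2.58 (SE 0.55, edgeR quasi-likelihood adjusted p = 0.000497). In F192E cells it had 410.1, 301 and 620.0 CPM with siUPF1, against 114, 65.1 and 174 CPM with siNT, again without overlap. The log2 difference there was 1.91 (SE 0.54, adjusted p = 0.00924). Without replicate 2 of the F192E siNT group it was 1.61 (adjusted p = 0.0652), and without replicate 3 of the F192E siUPF1 group 1.59 (adjusted p = 0.0524).

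In FE-ER cells TSC22D3 had 456, 210.0 and 343 CPM with siUPF1, against 176, 60.3 and 145 CPM with siNT. These groups did not overlap either, and the log2 difference of 1.40 (SE 0.53) missed the threshold of 0.05 at an adjusted p of 0.0637. With 1 library left out it lay between 1.07 (without replicate 2 of FE-ER siNT, adjusted p = 0.242) and 1.69 (without replicate 1 of FE-ER siNT, adjusted p = 0.0628). Of these leave-outs, it passed only without replicate 2 of FE-ER siUPF1 (1.64, adjusted p = 0.0495). It also passed in DESeq2 (1.40, adjusted p = 0.0366) and without the expression filter (1.37, adjusted p = 1.37e-31). WT cells had 144, 139.7 and 308 CPM with siUPF1, against 92.9, 64.3 and 205 CPM with siNT. Replicate 3 of the WT siNT group was above replicates 1 and 2 of the WT siUPF1 group, and the log2 difference was 0.71 (SE 0.53, adjusted p = 0.423). It was 0.24 without replicate 3 of WT siUPF1 and 1.35 without replicate 3 of WT siNT, and passed in neither. In I757R cells the values were 336, 168 and 429 CPM with siUPF1 and 182, 85.6 and 277 CPM with siNT, a log2 difference of 0.78 (SE 0.52, adjusted p = 0.359). IR-ER cells had 315, 175 and 348 CPM with siUPF1 and 180.5, 94.2 and 225 CPM with siNT, a log2 difference of 0.75 (SE 0.53, adjusted p = 0.382). Without replicate 2 of siNT both were 0.44, and without replicate 3 of siNT they were 1.21 in I757R and 1.0004 in IR-ER cells. The smallest fitted difference was in E797R cells, with 165, 122 and 284 CPM under siUPF1 and 115, 64.5 and 222 CPM under siNT, at a log2 of 0.51 (SE 0.53, adjusted p = 0.590). It was 0.11 without replicate 3 of E797R siUPF1 and 1.08 without replicate 3 of E797R siNT. In the last 4 lines the siUPF1 and siNT ranges overlapped.

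**Figure D1:**
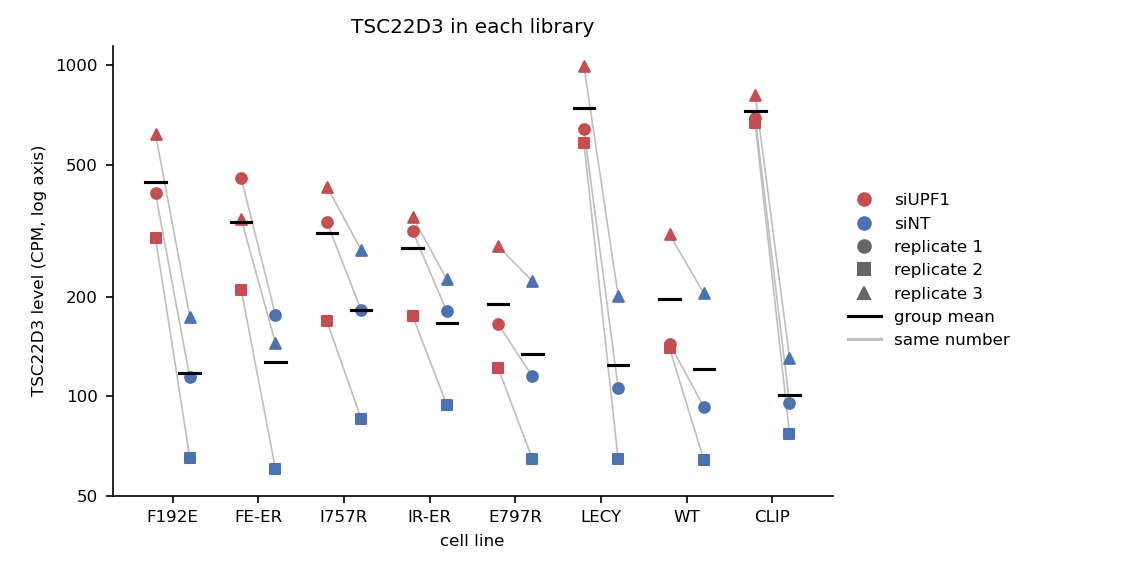
TSC22D3 level in CPM on a log axis in each of the 48 libraries, siUPF1 (red) left of siNT (blue) in every line. Marker shapes give the replicate number, grey lines join libraries of the same number and black bars are group means. The siUPF1 library is the higher one in 21 of 21 joined pairs of the 7 UPF1 lines, and in all 24 with CLIP, whose values are a description.

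The siUPF1 and siNT libraries of a line deviated together by replicate number, so the same contrasts were also fitted with the number as a block. Within a number, TSC22D3 was higher with siUPF1 in 21 of 21 pairs of the 7 UPF1 lines. Its fold in the 3 pairs was 1.55, 2.17 and 1.51 in WT cells, 1.44, 1.88 and 1.28 in E797R cells and 6.05, 9.06 and 4.94 in LECY cells. With the block the log2 difference was 2.68 in LECY (SE 0.26, adjusted p = 6.64e-10), 1.95 in F192E (SE 0.25, adjusted p = 3.29e-07) and 1.45 in FE-ER (SE 0.25, adjusted p = 3.85e-05). TSC22D3 then also rose in I757R (0.81, adjusted p = 0.0128), IR-ER (0.77, adjusted p = 0.0181) and WT cells (0.76, adjusted p = 0.0258), but not past the threshold in E797R cells (0.57, adjusted p = 0.0985). With 1 replicate number left out of the blocked fit, the adjusted p lay between 0.0617 and 0.234 in WT and between 0.0616 and 0.141 in IR-ER cells, so both calls were lost each time. In I757R cells it lay between 0.0382 and 0.107, and the call was kept without number 3 and lost without either of the others. Averaged over the 7 UPF1 lines, the log2 difference was 1.23 (SE 0.20, adjusted p = 2.92e-06) without the block and 1.29 (SE 0.10, adjusted p = 2.24e-13) with it.

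Of the 4 members, 1 passed in LECY cells (29.4% of all genes passed there), 1 in FE-ER (18.6%), 1 in F192E (21.8%), 1 in I757R (15.9%) and none in WT (15.4%), IR-ER (17% of all genes) or E797R (16.1%). TSC22D3 was the member called in LECY and F192E, TSC22D4 in FE-ER and TSC22D1 in I757R cells. The block made these counts 3 in FE-ER (31.1% of all genes), 2 in F192E (34.6%), 2 in IR-ER (28.2%), 2 in I757R (28.5%), 1 in LECY (41.6%), 1 in WT (26.1%) and 0 in E797R (27.4%). For the mean of the 7 lines 3 members passed without the block and 3 with it, where 58.9% and 66.1% of all genes did. The member that did not pass in either was TSC22D2.

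**Figure D2:**
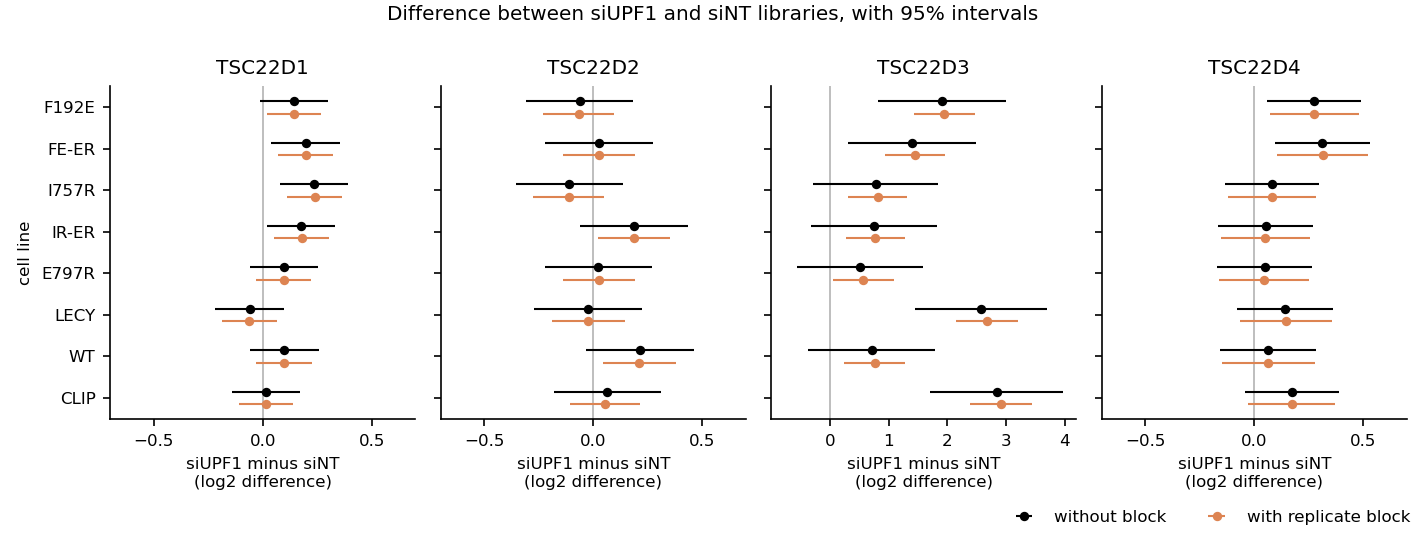
Log2 difference, siUPF1 minus siNT, for each member (panels) in each line (rows), with 95% intervals from the fit without (black) and with (orange) the replicate block. The TSC22D3 panel has a wider axis. Its values run between 0.51 in E797R and 2.84 in CLIP cells, and those of the other members between -0.11 (TSC22D2 in I757R) and 0.31 (TSC22D4 in FE-ER). CLIP values are a description.

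Whether a mutant held TSC22D3 at the level that wild-type UPF1 did was asked by setting each mutant against WT with siUPF1. TSC22D3 was higher in LECY than in WT cells, at 740.5 ± 223 CPM against 197 ± 96.0 CPM (SD, n = 3 each). The LECY libraries, between 584 and 996 CPM, lay above the WT libraries, between 139.7 and 308 CPM. UPF1 itself, transgene and endogenous reads summed, was lower in LECY than in WT in the same libraries, at 3259.5 ± 224 CPM against 4515 ± 409 CPM (log2 -0.47, SE 0.11, edgeR adjusted p = 0.00283, and 6.13e-05 with the block), and its part in the TSC22D3 difference was not tested. The log2 difference was 1.91 (SE 0.54, adjusted p = 0.0138) without the block and 1.96 (SE 0.25, adjusted p = 4.81e-07) with it. Without the block it missed the threshold when replicate 1 (1.72, adjusted p = 0.0720) or 2 (1.70, adjusted p = 0.0770) of WT or replicate 3 of LECY (1.64, adjusted p = 0.0675) was left out, or when those 2 groups were fitted alone (1.91, adjusted p = 0.0546).

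F192E cells averaged 444 ± 162 CPM with siUPF1, a log2 difference to WT of 1.17 (SE 0.53, adjusted p = 0.346). With the block it was 1.19 (SE 0.25, adjusted p = 0.00238), and with the block and 1 replicate number left out the adjusted p lay between 0.0266 and 0.0552. For FE-ER, I757R, IR-ER and E797R cells with siUPF1 the log2 differences to WT were 0.77, 0.66, 0.50 and -0.05, with 95% intervals of -0.30 to 1.83, -0.41 to 1.72, -0.57 to 1.57 and -1.12 to 1.02. None of the 4 passed (adjusted p of 0.743, 0.837, 0.872 and 0.999). These intervals are wide and do not show that the levels were alike. UPF1 itself was below WT with siUPF1, without overlap, in F192E (log2 -0.23, adjusted p = 0.383) and I757R cells (-0.21, adjusted p = 0.715). In FE-ER, IR-ER and E797R cells it was at 0.09, -0.15 and -0.08 against WT, with overlap. UPF1 passed in none of these 5 mutants, and its part in the TSC22D3 values was not tested.

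Of the members, 1 passed for LECY against WT with siUPF1 (13.5% of all genes) and 2 with the block (24.4%), the second being TSC22D2. For F192E against WT none passed (1.82% of all genes) and 1 did with the block (6.99%). No member passed for FE-ER (0.425% of all genes), I757R (0.0779%), IR-ER (0.246%) or E797R (0.0479%) against WT.

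With siNT, where endogenous UPF1 was present beside the transgene, no member passed in any mutant against WT. TSC22D3 had log2 differences between -0.03 (F192E) and 0.59 (I757R, SE 0.53, 95% interval -0.49 to 1.67). Of all genes, 0% passed for F192E, 0.018% for E797R and 0.00599% each for FE-ER, I757R, IR-ER and LECY.

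The difference between knockdown effects was tested directly. The TSC22D3 response in LECY exceeded that in WT cells by 1.87 on the log2 scale (SE 0.75, adjusted p = 0.221) without the block and by 1.92 (SE 0.36, adjusted p = 0.000462) with it. Without the block it was 1.23 without replicate 3 of WT siNT and 2.41 without replicate 3 of LECY siNT. In F192E it exceeded that in WT by 1.20 (SE 0.75) and by 1.19 with the block (SE 0.36, adjusted p = 0.172), and neither passed. Without the block it was 0.56 without replicate 3 of WT siNT and 1.66 without replicate 3 of WT siUPF1. In the remaining mutants the difference lay between -0.20 (E797R) and 0.69 (FE-ER), and none passed. Among all genes 3.31% passed for LECY without the block and 8.46% with it, and 1 member did so with it. For F192E 0.18% of all genes passed, for FE-ER 0.00599% and for I757R, IR-ER and E797R 0%, with no member among them.

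Ordered by mean TSC22D3 level, LECY with siUPF1 (740.5 ± 223 CPM) was followed by CLIP with siUPF1 (725 ± 78.5), F192E (444 ± 162), FE-ER (336 ± 123), I757R (311 ± 132), IR-ER (279.5 ± 92.1), WT (197 ± 96.0) and E797R (190.2 ± 84.1) with siUPF1. All 8 siUPF1 means stood above all 8 siNT means. Next came I757R (182 ± 95.7), IR-ER (167 ± 66.7), E797R (134 ± 80.7), FE-ER (127 ± 59.9), LECY (124 ± 70.2), WT (121 ± 74.1), F192E (118 ± 54.5) and CLIP (101 ± 27.3) with siNT. In 14 of the 15 neighbouring pairs the ranges overlapped and the gap between means was smaller than the larger SD. The exception was CLIP against F192E with siUPF1. LECY and CLIP with siUPF1 differed by a log2 of 0.03 (95% interval -1.02 to 1.08), and WT was below CLIP with siUPF1 by a log2 difference of -1.87 (SE 0.54). Both comparisons with CLIP are descriptions, since the family was chosen on CLIP values. The interval is wide and does not show that LECY and CLIP were alike.

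TSC22D3 levels within a group went with the replicate number, with a coefficient of variation between 10.8% (CLIP with siUPF1) and 61.4% (WT with siNT). Replicate 2 was lowest in 16 of 16 groups and replicate 3 was highest in 14 of 16, replicate 1 being highest in both FE-ER groups. The level in replicate 3 was between 1.22 and 3.45 times that in replicate 2, with a median of 2.36. TSC22D3 ranked 201 of 16697 genes by the size of this difference (log2 1.17, adjusted p = 1.05e-09 for the replicate number), while the number passed the test in 68.2% of all genes. Its biological coefficient of variation was 43.7%, above that of 96.5% of genes, and 20.8% with the block. The same measure was 6.02% for TSC22D1, 9.78% for TSC22D2 and 7.34% for TSC22D4 without it. The share of counts from mitochondrially encoded genes followed the same numbers, with medians of 2.69%, 2.25% and 3.15% in replicates 1, 2 and 3. Its part in the TSC22D3 pattern was not tested.

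The fold over siNT also went with the replicate number. In 8 of 8 lines the largest log2 rise of TSC22D3 was in replicate 2, which had the lowest siNT level, and the smallest was in replicate 3, which had the highest siNT level in 7 of 8 lines. The siNT level is part of the log2 rise, so a low siNT level raises it by construction. The 8 lines include CLIP, whose values are a description. Measured in CPM, the largest rise was never in replicate 2: it was in replicate 3 in 5 lines and in replicate 1 in 3 lines. In LECY cells the rise was 536, 519 and 794 CPM in replicates 1, 2 and 3, and in WT cells 51.2, 75.4 and 104 CPM. The median log2 rise of 20 NMD targets was largest in replicate 3 in 6 of 8 lines and largest in replicate 2 in 1 line.

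TSC22D1, the TGF-beta-stimulated member, showed small differences. In I757R cells it had 92.1, 98.0 and 99.1 CPM with siUPF1, against 81.4, 74.7 and 89.2 CPM with siNT, without overlap. It rose there by a log2 of 0.24 (SE 0.08, adjusted p = 0.0305), or 1.18-fold. In FE-ER cells it had 96.6, 85.7 and 92.2 CPM with siUPF1, against 80.7, 74.9 and 83.6 CPM with siNT. In IR-ER cells it had 91.3, 91.2 and 98.7 CPM with siUPF1, against 82.0, 77.5 and 89.5 CPM with siNT. The groups did not overlap in either line. The log2 differences of 0.20 in FE-ER and 0.18 in IR-ER cells passed with the block alone (adjusted p = 0.0126 and 0.0266). With 1 replicate number left out of the blocked fit both calls were lost each time, at adjusted p of 0.0635 to 0.145 in FE-ER and 0.120 to 0.325 in IR-ER cells. In LECY cells the value was -0.06 (SE 0.08). Within replicate numbers TSC22D1 was higher with siUPF1 in 18 of 21 pairs of the 7 UPF1 lines, and the mean over these lines was 0.13 (SE 0.03, adjusted p = 0.000292). The I757R call was lost without replicate 1 (adjusted p = 0.0945) or 2 (0.217) of siNT, without replicate 2 (0.101) or 3 (0.0790) of siUPF1, without the expression filter (0.466) and with I757R fitted alone (0.170), and with the block it was lost without replicate number 2 (0.188).

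TSC22D4, a partner of NRBP1, rose in FE-ER cells. It had 31.6, 30.6 and 28.3 CPM with siUPF1, against 26.2, 23.0 and 23.6 CPM with siNT, and the groups did not overlap. The log2 difference was 0.31 (SE 0.11, adjusted p = 0.0373), or 1.24-fold. F192E cells had 29.4, 29.7 and 27.7 CPM with siUPF1, against 25.2, 24.1 and 22.5 CPM with siNT, a log2 difference of 0.27 that passed with the block alone (0.28, SE 0.10, adjusted p = 0.0287). That call was lost whichever replicate number was left out of the blocked fit (adjusted p of 0.0629 to 0.157). TSC22D4 was higher with siUPF1 in 17 of 21 pairs, and the mean over the 7 UPF1 lines was 0.14 (SE 0.04, adjusted p = 0.00360). That mean missed the threshold without the expression filter (0.12, adjusted p = 0.0892). The FE-ER call was lost without replicate 1 (adjusted p = 0.157) or 2 (0.104) of siUPF1, without replicate 2 (0.115) or 3 (0.130) of siNT, without the expression filter (0.317) and with FE-ER fitted alone (0.0918), and with the block it was lost without replicate number 2 (0.167) or 3 (0.0672).

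TSC22D2, another NRBP1 partner, had log2 differences between -0.11 (I757R) and 0.21 (WT) in the 7 UPF1 lines, none of which passed. It was higher with siUPF1 in 11 of 21 pairs, and its mean over the lines was 0.04 (95% interval -0.06 to 0.13). With siUPF1 it had 62.6, 52.3 and 52.3 CPM in LECY cells, against 83.3, 63.1 and 55.7 CPM in WT cells. These ranges overlapped, and WT replicate 1 was the highest of all 48 libraries. The LECY minus WT log2 difference was -0.27 (SE 0.12, adjusted p = 0.145), and -0.26 (SE 0.08, adjusted p = 0.0141) with the block. With the block and 1 number left out, the adjusted p lay between 0.0142 and 0.236. Without replicate 3 of WT and without the block it was -0.41 (adjusted p = 0.0363).

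**Figure D3:**
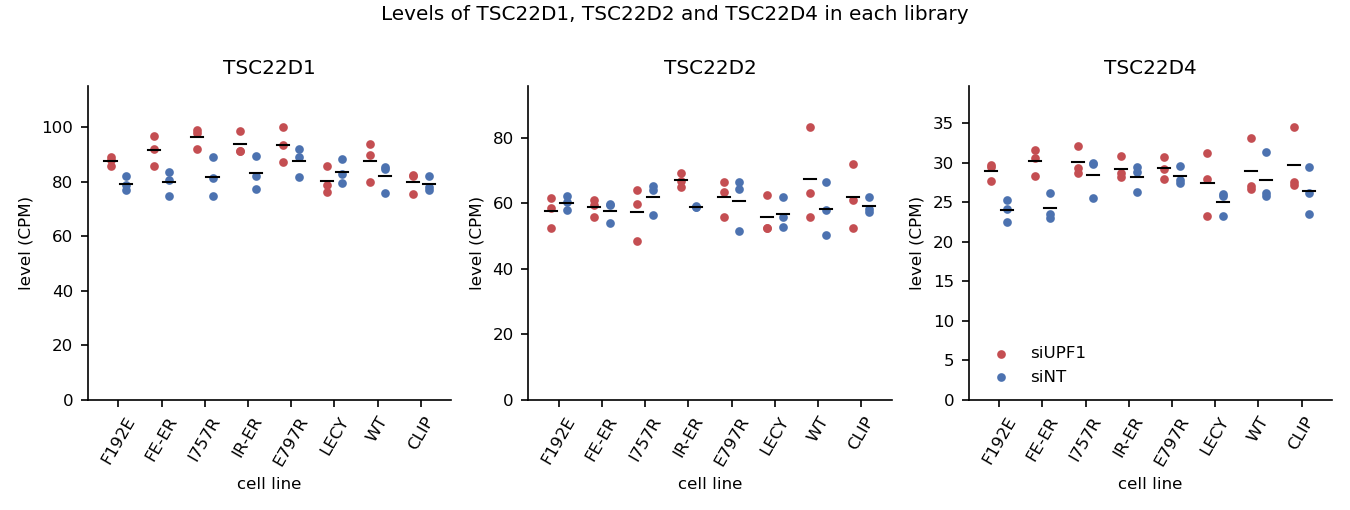
Levels of TSC22D1, TSC22D2 and TSC22D4 in CPM, from zero, in each of the 48 libraries, siUPF1 (red) left of siNT (blue) in every line. Points are libraries and black bars group means. Library levels stay between 74.7 and 100 CPM for TSC22D1, between 48.3 and 83.3 CPM for TSC22D2 and between 22.5 and 34.5 CPM for TSC22D4.

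Genes that overlap the members on the genome had few reads. TSC22D1-AS1, on the opposite strand of TSC22D1, had between 3 and 20 counts per library. NCBP2L, opposite TSC22D3, had at most 2 and C7orf61, on the strand of TSC22D4, at most 8. AL138960.2 and AL139184.1 had none. The lowest counts of the members themselves were 509 (TSC22D1), 414 (TSC22D3) and 158 (TSC22D4). Whether counting used the strand was not given in the sources used here.

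Across the means of the 16 groups, the levels of the members were loosely related. Pearson's r of log2 CPM was 0.67 between TSC22D1 and TSC22D4, 0.57 between TSC22D3 and TSC22D4, 0.31 between TSC22D2 and TSC22D4, 0.29 between TSC22D1 and TSC22D2, 0.18 between TSC22D1 and TSC22D3 and -0.05 between TSC22D2 and TSC22D3. These points share lines and libraries and include the CLIP groups, and r is a description. The genes whose means ran most like those of TSC22D3 were GMPPB (r = 0.986), SMG1 (0.986), SLC7A1 (0.983), PLEKHJ1 (0.983) and TUG1 (0.981), among 677 genes with r above 0.9. SMG1 is the kinase that phosphorylates UPF1, GMPPB makes GDP-mannose, SLC7A1 carries cationic amino acids and TUG1 is a long noncoding RNA. SMG1 is also on the list of NMD targets used below. Their log2 differences between siUPF1 and siNT in LECY cells, between 0.53 (TUG1) and 1.56 (SMG1), were all below the 2.58 of TSC22D3. TSC22D1 was most like KCNIP2 (0.927), SLC6A6, ASAP3, ZBTB16 and PEX6, with 15 genes above 0.9. TSC22D2 (highest MIS18A, 0.802) and TSC22D4 (highest BLVRB, 0.849) had no gene above 0.9.

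NMD targets are transcripts that accumulate when UPF1 activity is low. A list of 20, drawn from general knowledge but with earlier results of these data known, served as a gauge. It may therefore not be independent of these data. In LECY cells 18 of the 20 rose and none fell, in F192E cells 11 and none, in FE-ER 6 and none, in IR-ER 4 and none, in I757R 3 and none, in WT 2 and none, and in E797R 2 rose and 1 fell. In CLIP cells 18 rose and none fell. The share of all genes that rose was 15.8% in LECY, 11.8% in F192E and 18.1% in CLIP cells. In the other lines it lay between 8.13% (I757R) and 10.1% (FE-ER). RASSF1, BAG1, GABARAPL1 and ZFAS1 rose in LECY cells by 1.76, 1.76, 1.56 and 1.60 on the log2 scale (adjusted p = 1.38e-11, 3.71e-10, 1.38e-11 and 9.89e-08), each less than TSC22D3. Of these 4, BAG1 alone passed in WT cells (0.71, adjusted p = 0.00323). The median log2 difference of the list was, in ascending order, -0.10 in E797R, -0.05 in WT, 0.17 in IR-ER, 0.21 in I757R, 0.30 in FE-ER, 0.49 in F192E, 0.84 in LECY and 0.92 in CLIP cells. The median over all genes was between -0.03 and 0.02 in these lines. The 8 lines stood in this same order by the log2 difference of TSC22D3. The place of CLIP in it is a description, since the family was chosen on that value. Both orders come from the same libraries, and neighbours such as I757R, IR-ER and WT differed by less than the SE of TSC22D3. In WT and E797R cells the list's median was below zero and TSC22D3 was at 0.71 and 0.51.

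**Figure D4:**
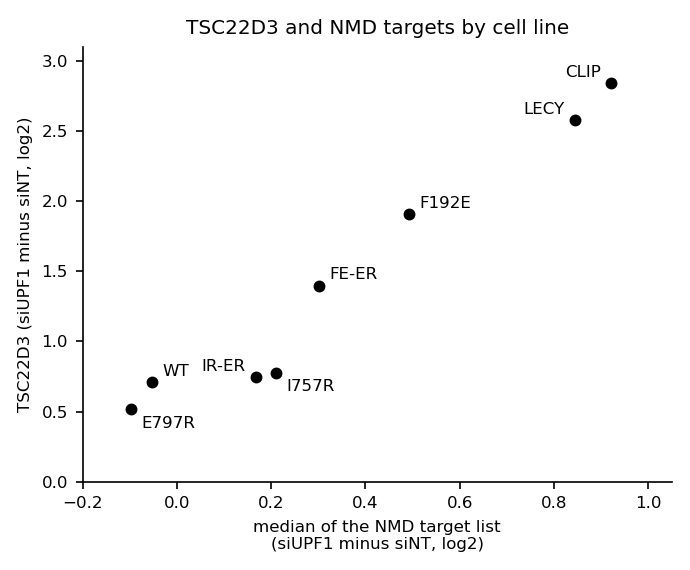
Log2 difference of TSC22D3 between siUPF1 and siNT (vertical) against the median log2 difference of 20 NMD targets in the same libraries (horizontal), 1 point per line. CLIP, at 0.92 and 2.84, and LECY, at 0.84 and 2.58, stand apart at the upper right, and E797R and WT lie at the lower left. The CLIP value of TSC22D3 is a description.

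Lists of genes around the members were counted in the same fit. In LECY cells 3 of 14 genes of the NRBP and WNK list rose and 3 fell, with a median of 0.04, beside -0.01 over all genes, where 29.4% passed in either direction. With the block 5 rose and 3 fell, where 41.6% of all genes passed. WNK4, a kinase of the cascade, had 13.7 ± 2.32 CPM with siUPF1 and 3.72 ± 0.751 CPM with siNT there (log2 1.88, SE 0.27, adjusted p = 6.41e-07). OXSR1, which WNK kinases activate, had 101 ± 1.41 CPM with siUPF1 and 51.2 ± 1.002 CPM with siNT (log2 0.98, SE 0.08, adjusted p = 2.95e-12), and CAB39L rose by a log2 of 1.01 (adjusted p = 0.0125). NRBP2, a paralogue of NRBP1, fell by 0.95 on the log2 scale (adjusted p = 0.00443). WNK4 and OXSR1 rose in WT cells too, by 1.69 (adjusted p = 0.000120) and 0.59 (adjusted p = 1.18e-06). In WT cells 5 of the 14 rose and 1 fell, where 15.4% of all genes passed (6 and 3 with the block, where 26.1% did). For the mean of the 7 UPF1 lines 8 rose and 5 fell, where 58.9% of all genes passed. In CLIP cells 5 rose and 3 fell, where 33.7% of all genes passed.

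Among 16 glucocorticoid-responsive genes tested of 20 listed, 2 rose and 1 fell in LECY cells (3 and 3 with the block). In WT cells 4 rose and 1 fell, and in CLIP cells 3 rose and 1 fell. The share of all genes that passed was 29.4% in LECY (41.6% with the block), 15.4% in WT and 33.7% in CLIP cells. The list's median was -0.01 in LECY, 0.12 in WT and 0.03 in CLIP cells. MT1X, a metallothionein, rose by 3.56 in LECY (adjusted p = 0.000206) and 2.42 in WT cells (adjusted p = 0.00705), at 3.51 ± 0.377 CPM with siUPF1 and 0.275 ± 0.255 CPM with siNT in LECY cells. NR3C2, the mineralocorticoid receptor, fell by 0.34 in LECY cells (adjusted p = 0.0135). CEBPD had a log2 difference of 0.06 and MT2A one of 0.69 in LECY cells, and neither passed (adjusted p = 0.820 and 0.0955), though MT2A did with the block (adjusted p = 0.0321). PER1, a listed gene, was not analysed here.

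Of 20 FOXO genes and targets, 4 rose and 3 fell in LECY cells (6 and 3 with the block). In WT cells 2 rose and none fell (6 and 1 with the block). In CLIP cells 4 rose and 3 fell (9 and 4 with the block). Of all genes, 29.4% passed in LECY, 15.4% in WT and 33.7% in CLIP cells. With the block these shares were 41.6%, 26.1% and 45.6%. TXNIP, an inhibitor of thioredoxin, had 26.2 ± 0.860 CPM with siUPF1 and 4.99 ± 0.819 CPM with siNT in LECY cells (log2 2.39, SE 0.36, adjusted p = 2.04e-06). KLF6 and GADD45A rose there by 1.30 and 1.11 (adjusted p = 2.79e-06 and 7.65e-05), and SESN3 fell by 0.71 (adjusted p = 4.92e-06). GADD45A is also on the NMD list. In WT cells TXNIP was at 1.09 (adjusted p = 0.0551, and 0.00592 with the block), and KLF6, GADD45A and SESN3 did not pass. Of 18 TGF-beta pathway genes tested, none rose and 1 fell in LECY cells (1 and 2 with the block), none passed in WT cells (1 rose and 3 fell with the block) and 1, SMAD4, fell in CLIP cells (log2 -0.26, adjusted p = 0.00793, with 1 rising and 4 falling with the block). SMAD4, the shared partner of receptor-regulated SMADs, was at -0.11 in LECY (adjusted p = 0.304) and -0.20 in WT cells (adjusted p = 0.0888, and 0.0227 with the block). For the mean of the 7 lines 9 FOXO list genes rose and 4 fell, where 58.9% of all genes passed. For that mean 3 TGF-beta genes rose and 5 fell (6 and 7 with the block, where 66.1% of all genes passed). TGFB1 was not analysed here.

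Marker lists were counted beside these values. Of all genes, 29.4% passed in LECY, 15.4% in WT and 33.7% in CLIP cells, and 58.9% for the mean of the 7 UPF1 lines. With the block these shares were 41.6%, 26.1%, 45.6% and 66.1%. Of 9 markers of 293 cells, none rose and 3 fell in LECY, in WT and in CLIP cells alike, and 2 rose and 5 fell for the mean of the 7 UPF1 lines. With the block 1 rose and 4 fell in LECY and in CLIP cells, 2 rose and 4 fell in WT cells, and 2 rose and 6 fell for the mean. Of 3 fibroblast markers that passed the filter, of 7 listed, 1 fell in LECY cells (2 with the block), 1 fell in CLIP cells and none passed in WT cells (1 rose with the block), and 1 rose for the mean of the 7 UPF1 lines. The 1 leukocyte marker tested, of 6 listed, passed in none of these. Of 9 mitochondrially encoded genes, 1 rose in LECY cells (2 with the block) and none passed in WT or CLIP cells, while for the mean of the 7 UPF1 lines 4 rose and none fell (5 and none with the block). Their part in the TSC22D3 values was not tested.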

How the data were processed

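Ribosomal RNA-depleted total RNA of 48 libraries was sequenced. Expected counts per gene were deposited by the authors, who used cutadapt, STAR, RSEM and DESeq2 with hg38, per the submitters' processing notes, which give no versions or roles; RSEM shares out reads that match several genes by estimation, and 9.16% of the values were not whole. The annotation release was not given in the sources used here. Estimated counts were rounded. Genes passing edgeR's filterByExpr (minimum count 10) were fitted in 1 robust quasi-likelihood model with 16 line-by-siRNA groups and TMM normalisation (edgeR 4.0.16, R 4.3.3), with Benjamini-Hochberg adjustment over 16697 genes and a threshold of 0.05. SE is the absolute log2 difference over the square root of F. CPM values use the TMM library sizes, and the log2 CPM of single libraries a prior count of 2. The fit without the block was tested in the WT contrast on simulated counts that held no effect of the replicate number. The fit with the block was not tested in this way.

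Members and gene lists were chosen with earlier results of these data known. Named genes were the members, their overlapping genes, of each pathway list the 4 genes with the largest log2 difference in CLIP among those called there, the 5 genes most like each member over 16 group means, and UPF1. The replicate numbers come from the labels. Deviations of siUPF1 and siNT libraries of the same line and number correlated above 0.1 in 24 of 24 pairs (r of 0.115 to 0.469, against -0.353 to 0.0744 for different numbers), so the numbers pair those samples. Between mutants and WT this held in 17 of 18 pairs with siUPF1 (FE-ER replicate 1 failed). With siNT it held in 15 of 18 (FE-ER, I757R and IR-ER replicate 1 failed). Different numbers there reached 0.0622 with siUPF1 and 0.187 with siNT. The latter was FE-ER replicate 1 with WT replicate 3, against 0.0442 with WT replicate 1. Alternatives were RLE size factors, DESeq2 1.42.0, no filter, each library left out, the replicate block and only the groups compared. Promoters came from RefSeq GRCh38.p14 and gene positions from GENCODE 29, and 2 members' identifiers match it in all but the version. With 3 libraries against 3, an exact permutation test cannot go below 0.1, so none was used.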

Additional observations from a re-analysis of the deposited data

Results flagged for a closer look

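The TSC22D3 response to siUPF1 differed between LECY and WT cells in the test of the difference itself when the replicate number was a block. The LECY response exceeded the WT response by 1.92 on the log2 scale (SE 0.36, edgeR quasi-likelihood adjusted p = 0.000462), and each of the 3 replicate pairs was higher in LECY, at 6.05, 9.06 and 4.94-fold against 1.55, 2.17 and 1.51-fold in WT cells. Without the block the same difference was 1.87 (SE 0.75, adjusted p = 0.221). With the block and 1 replicate number left out, an alternative chosen after seeing the data, it was 1.91, 1.82 and 2.02 (adjusted p = 0.0136, 0.0376 and 0.0162).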

How the results depend on the processing

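No member value that passed changed sign in any alternative run. Numbers of members called changed as follows. With the replicate block they were 1 in WT, 2 in F192E, 3 in FE-ER, 2 in I757R and 2 in IR-ER for siUPF1 against siNT, 1 for F192E and 2 for LECY against WT with siUPF1, and 1 for the LECY minus WT difference of knockdown effects. Without the expression filter 1 member, TSC22D3, was called in WT, IR-ER and E797R cells. It was also called in F192E, FE-ER, I757R and IR-ER against WT with siUPF1, and in I757R and IR-ER against WT with siNT. It passed too for the F192E, FE-ER and LECY differences of knockdown effects. In FE-ER and I757R cells the count stayed at 1, but TSC22D3 was called (adjusted p = 1.37e-31 and 1.34e-09) in place of TSC22D4 and TSC22D1. The cause of these calls was not tested. DESeq2 called 2 members in FE-ER cells. With only the groups compared, 0 were called in FE-ER, in I757R and for LECY against WT with siUPF1. With a library left out, or a replicate number left out of the blocked fit (chosen after seeing the data), the count ran 0 to 1 in F192E, 0 to 2 in FE-ER, 0 to 2 in I757R, 0 to 2 for LECY and 0 to 1 for F192E against WT with siUPF1, and 0 to 1 for the LECY difference. TSC22D3 log2 differences that never passed changed sign in these fits. With siNT against WT they ran -0.43 to 0.60 in F192E, -0.33 to 0.71 in FE-ER, -0.43 to 0.77 in E797R and -0.51 to 0.67 in LECY. For E797R against WT with siUPF1 they ran -0.46 to 0.42. For the difference of knockdown effects they ran -0.57 to 0.54 in I757R, -0.62 to 0.49 in IR-ER and -0.82 to 0.37 in E797R. Among the other members' values that were not called, 128 of 1124 alternatives changed sign and 0 passed. The block result for FE-ER, I757R and IR-ER against WT changed no call. TSC22D3 varied most between replicates (SE of 0.52 to 0.56 within a line without the block), which limits what 3 libraries per group can show.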

Other observations

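The replicate number moved other genes as well as TSC22D3, in these lists by the test of the number in the blocked fit. Of 20 FOXO list genes 19 passed, and in 16 of them replicate 3 was above replicate 2. PIK3IP1, an inhibitor of phosphoinositide kinase, was higher in replicate 3 by a log2 of 0.89 and IRS2, an insulin receptor substrate, by 0.67. All 18 TGF-beta pathway genes tested passed, and in 13 of them replicate 3 was below replicate 2. CCN2, ID3 and ID1, which TGF-beta or BMP signalling induces, had replicate 3 minus replicate 2 differences of -2.43, -1.41 and -1.21, opposite in sign to the 1.17 of TSC22D3. These 5 genes were chosen after their values were seen. Of the 9 mitochondrially encoded genes 8 passed, all with replicate 3 above replicate 2, and of 16 glucocorticoid list genes 9 did, 5 of them with replicate 3 above. Over all genes 68.2% passed, 5731 with replicate 3 above replicate 2 and 5656 below.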
